A study of Mus musculus with 12 samples.

Results

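The comparison described here set wild-type mouse embryonic fibroblasts after 24 h of tunicamycin against the same kind of cells after 12 h, for every mouse microRNA (miRNA) on the array. The arrays were chosen by their titles, 2 for ATF4WT with tunicamycin at 24 h and 2 for ATF4WT at 12 h, which makes 4 of the 12 arrays of the series. Members were the 611 names of mouse miRNAs among the 650 miRNA names on each array. The series holds cultured embryonic fibroblasts (MEFs) of the C57BL/6 background, either ATF4WT or ATF4KO, the latter lacking the transcription factor ATF4 and called KO here. All cells of the 4 compared arrays were ATF4WT and received 2 ug/mL tunicamycin in serum-containing medium, so that the treatment labels differed only in time. Each group came from 2 independent experiments according to the series design. The labels do not say how many embryos or lines the cultures came from, so a p-value here measures only how far these samples spread, which may be technical. The KO arrays with tunicamycin at 12 h and 24 h, 4 in all, were used as the closest comparison.

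Tunicamycin blocks the first step of N-linked glycosylation, so that glycoproteins misfold in the endoplasmic reticulum and the unfolded protein response starts. The sensor kinase PERK lowers general translation and raises translation of ATF4, which induces genes for amino acid supply, redox balance and, on long stress, cell death. A mature miRNA guides Argonaute to messenger RNAs that pair with its seed, the bases near its 5′ end, and lowers their translation or stability, so that miRNAs of one seed share many targets.

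The 9 members of the let-7 family are shown because their scaled signal was higher at 24 h in both experiments (lower in both with no scaling). Mature sequences are from RefSeq (GRCm38.p6), written 5′ to 3′, and capitals mark the seed, bases 2 to 8.
let-7a: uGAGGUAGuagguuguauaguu
let-7b: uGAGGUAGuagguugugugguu
let-7c: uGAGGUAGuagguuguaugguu
let-7d: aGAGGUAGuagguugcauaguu
let-7e: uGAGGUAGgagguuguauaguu
let-7f: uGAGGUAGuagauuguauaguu
let-7g: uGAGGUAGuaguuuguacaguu
let-7i: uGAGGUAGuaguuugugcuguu
miR-98: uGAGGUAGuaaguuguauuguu
All 9 share 1 seed, GAGGUAG. Over the 36 pairs of members the sequences differed at 1 to 6 of 22 positions, and 4 pairs differed at 1 position, so probes of close members may share signal, which was not tested. The let-7 family restrains proliferation and stem-cell programmes and is abundant in differentiated cells. The genes lie on several chromosomes (GRCm38.p6), some of them close together. let-7a (chr13:48538239-48538260), let-7f (chr13:48537889-48537910) and let-7d (chr13:48536078-48536099) form a cluster on the minus strand. A search for overlapping genes, which left out symbols starting with Mir or Gm, found none there. let-7g (chr9:106178846-106178867, plus strand) lies in Wdr82, let-7e (chr17:17830366-17830387, plus strand) in Spaca6, and miR-98 (chrX:151913229-151913250, plus strand) in Huwe1, which also holds the further let-7f copy. let-7b (chr15:85707325-85707346, plus strand) lies in the long noncoding RNA Lncppara, which also holds a let-7c copy (chr15:85706616-85706637). The same search found no gene over the other let-7c copy (chr16:77599672-77599693, plus strand) or over let-7i (chr10:122985698-122985719, minus strand).

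The 4 tested members of the miR-15/16 seed family are shown because 3 of them had both 24 h arrays above both 12 h arrays in scaled signal, though not with no scaling. They share the seed AGCAGCA, and miR-15a and miR-16 are known for restraining the cell cycle and BCL2.
miR-15a: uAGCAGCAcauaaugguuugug
miR-15b: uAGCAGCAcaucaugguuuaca
miR-16: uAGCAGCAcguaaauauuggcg
miR-322: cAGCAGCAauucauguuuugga
miR-15b (chr3:69009775-69009796, plus strand) lies with a miR-16 copy in Smc4, miR-15a (chr14:61632075-61632096, minus strand) with the other copy in the noncoding RNA Dleu2, and miR-322 (chrX:53054306-53054327, minus strand) in the noncoding RNA C430049B03Rik.

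The next sequences belong to miRNAs whose 24 h minus 12 h difference was large and opposite in the 2 experiments.
miR-1187: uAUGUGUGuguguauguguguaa
miR-466i: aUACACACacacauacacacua
miR-467f: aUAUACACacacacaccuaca
miR-574-3p: cACGCUCAugcacacacccaca
miR-574-5p: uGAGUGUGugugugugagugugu
miR-1224: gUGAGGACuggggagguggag
Of the 17 such miRNAs 8 were matched in RefSeq, and 5 of these 8 hold CACAC or its reverse complement GUGUG. The rest of the 8, miR-1224, miR-207 and miR-877*, hold neither, and miR-207 and miR-877* are not printed. The share with either motif among the tested miRNAs was not counted. The motif was not confined to this set, since let-7b, whose scaled signal was higher at 24 h in both experiments, also holds GUGUG. Either motif is held by 95 of all 1679 mature names with a RefSeq sequence, or 5.66 percent. The match is a description of the letters only. miR-574-3p (chr5:64970364-64970385) and miR-574-5p (chr5:64970328-64970350) are the arms of 1 hairpin on the plus strand, where Fam114a1 and Tlr6 are annotated. miR-466i (chr13:17747552-17747573, plus strand) lies in Cdk13, miR-467f (chr11:69635419-69635439, minus strand) in Fxr2 and miR-1224 (chr16:20604452-20604472, plus strand) in Vwa5b2. For miR-1187 (chr5:82798964-82798986, minus strand) no overlapping gene was found, symbols starting with Mir or Gm being left out of the search.

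Signal is given as log2 of the scaled signal, the summed probe signal of a miRNA over the array's 75th percentile, with a floor at -4.93. The 4 wild-type arrays lay on 1 slide with the 4 KO tunicamycin arrays, and replicate number coincided with the scan date, so experiment and scan date cannot be told apart. The untreated arrays lay on another slide, so that treatment and slide cannot be told apart. In both genotypes the 12 h and 24 h arrays lay in slide columns 2 and 4 in replicate 1, and 3 and 1 in replicate 2. Within a pair, time and column therefore cannot be told apart. The 12 h arrays were brighter than the 24 h arrays of the same number, with 75th percentiles of 431.5 against 288.3 in replicate 1 and 570.1 against 354.1 in replicate 2. Of the mouse miRNAs 127 and 138 were well above background on the 12 h arrays, and 104 and 133 on the 24 h arrays. No Atf4 transcript is measured on a miRNA array, so nothing here checks the genotype. Of the 40 fibroblast-abundant miRNAs 35 were well above background on at least 1 wild-type tunicamycin array and 30 on all 4. Among the defining markers miR-21, miR-199a-3p, miR-199a-5p and miR-214 were well above background on all 4, miR-143 on 1 array at each time, and miR-145 stood at the floor on all 4. The summed scaled signal of the fibroblast list ran from 37.1 to 52.9. That of the markers of other cell types ran from 0 to 0.00381 for epithelium, 0.00306 to 0.0226 for neural cells, 0.00815 to 0.0185 for blood and endothelium, 0 to 0.0521 for muscle and 0.0554 to 0.137 for pluripotent cells. Of those markers 1 of 7 muscle names (miR-206) and 1 of 10 pluripotent names (miR-294) were well above background on any of the 4 arrays, and 0 of 7, 0 of 6 and 0 of 8 of the epithelial, neural and blood names.

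Between 12 h and 24 h no miRNA of the wild-type cells passed the test. Of the 611 mouse miRNAs 120 were tested, those with both arrays of 1 or more of the 4 tunicamycin groups well above background. With limma and Benjamini-Hochberg adjustment 0 of 120 (0 percent) had an adjusted p under 0.05, with or without the replicate number as a block. At an unadjusted p under 0.05 the count was also 0 in both fits; let-7e had the smallest p of limma's test, 0.0804, and an adjusted p of 1. The median difference over the 120 was 0.19, the smallest -0.90 and the largest 1.05. The 95% intervals reached a median of 0.80 to either side of the difference, and 0.76 with the block, so that a difference below about that size could not be told from 0. Only 93 of the 120 were well above background on all 4 wild-type arrays, 21 on 1 to 3 arrays and 6 on none. The other 491 mouse miRNAs were not well above background on both arrays of any tunicamycin group and were not tested. Of these, 55 were above background on 1 or 2 of the 4 wild-type arrays. They were not all dim, since let-7d* stood at -1.54 on the 12 h replicate 2 array. With 2 arrays against 2 an exact two-sided permutation test of a single miRNA cannot give a p below 0.333.

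The let-7 family was shifted alike in both experiments. All 9 members were higher at 24 h than at 12 h in both same-numbered pairs, by a median of 0.32 in replicate 1 and 0.36 in replicate 2, and lower in both with no scaling. Over all 120 tested miRNAs 42 (35 percent) were higher in both pairs and 5 (4.17 percent) lower in both, and the pair medians were 0.08 and 0.23. In 8 of the 9 members, all but miR-98, both 24 h arrays lay above both 12 h arrays, against 30 of 120 (25 percent) over all tested miRNAs, and 4 of 120 (3.33 percent) had them below. This separation depended on the scaling: it held for 0 of 9 members with the array median or with the 75th percentile over all mouse miRNAs, 3 with quantile normalization and 4 with the mean of log2 probe signals, and over all tested miRNAs for 1, 0, 4 and 11 of 120. With normexp it held for 2 of 9 members and 74 of 120. No member passed the test.

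let-7e had levels of 0.38 and 0.29 at 12 h and 0.75 and 0.62 at 24 h, a difference of 0.35 ± 0.16 (SE, n = 2 a group) with a 95% interval from -0.06 to 0.76. For let-7i the 12 h levels were 0.10 and -0.06 and the 24 h levels 0.51 and 0.32, a difference of 0.39 ± 0.35 with an interval from -0.48 to 1.27. The arrays of the 2 times did not overlap in either miRNA. Each SE and 95% interval given here is limma's, from a spread pooled over the wild-type and KO tunicamycin groups. In let-7i replicate 2 minus replicate 1 was -0.15 at 12 h and -0.20 at 24 h in wild type. Its KO 24 h levels lay further apart, at 1.24 and 0.23, so its SE does not describe the wild-type spread alone. let-7a stood at 1.03 and 0.79 at 12 h and at 1.37 and 1.22 at 24 h, 0.38 ± 0.28 higher. let-7g stood at -0.85 and -1.09 at 12 h and at -0.49 and -0.73 at 24 h, 0.36 ± 0.22 higher. let-7f, a member of the let-7a cluster, had 1.21 and 0.87 at 12 h and 1.46 and 1.28 at 24 h. The third gene of that cluster, let-7d, had 0.49 and 0.25 against 0.72 and 0.61, so all 3 were shifted the same way in each pair. The smallest difference of the 9 was that of let-7b, with 0.45 and 0.49 at 12 h and 0.63 and 0.72 at 24 h (0.21 ± 0.17). let-7c had 0.08 and 0.05 at 12 h and 0.32 on both 24 h arrays. miR-98 was the exception to the separation of the arrays, since its replicates lay further apart (-2.91 and -3.48 at 12 h, -2.59 and -3.13 at 24 h) than its times.

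The 12 h mean of every let-7 member lay below its mean in the 2 untreated wild-type arrays, which lay on another slide. The share of all tested miRNAs with that order was not counted. Outside let-7 it was seen in miR-21 (4.14 against 5.19), for example, but not in miR-23a (0.50 against 0.37). At 24 h the let-7 mean lay between the 12 h and untreated means in 5 members and above the untreated mean in 4 (let-7b, let-7d, let-7e and miR-98). In let-7b (0.68 against 0.67) and let-7d (0.66 against 0.65) the 24 h and untreated means were nearly level. For let-7i, with 1.01 and 1.08 in untreated cells, the 24 h arrays remained below both untreated ones. let-7e had 0.32 and 0.65 untreated, and of its 24 h arrays 1 lay inside and 1 above that range. Over all tested miRNAs 66 of 120 had a 24 h mean between the 12 h and untreated means.

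**Figure D1:**
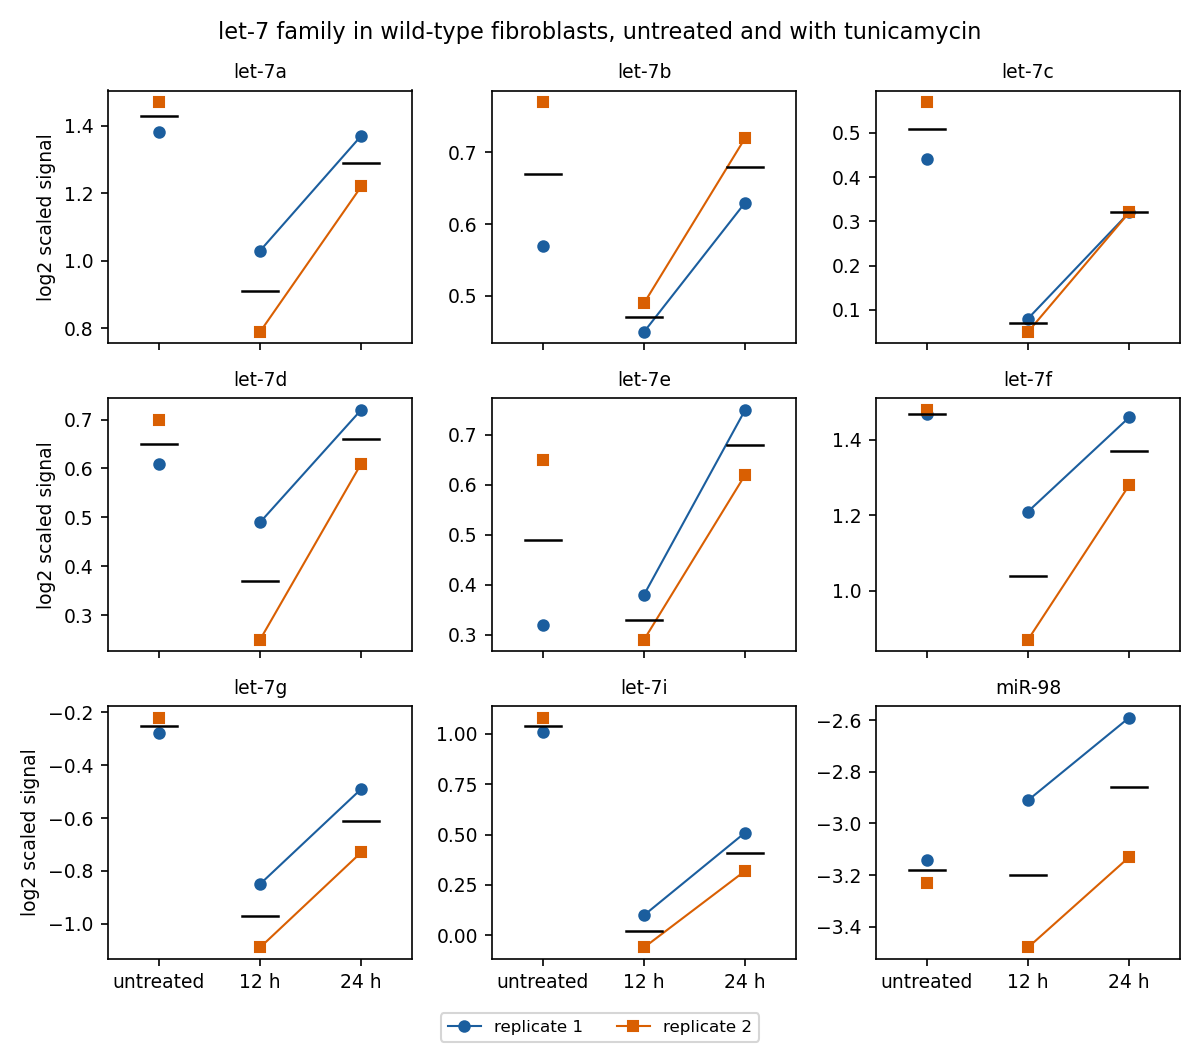
Log2 scaled signal (y axes, which differ between panels and do not start at 0) of the 9 let-7 members in wild-type cells, untreated or after 12 h or 24 h of tunicamycin (x axes). Circles are replicate 1 and squares replicate 2, lines join same-numbered tunicamycin arrays, and black bars are means of 2 arrays. Both lines slope upward in all 9 panels, and downward with no scaling.

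The direction of the let-7 differences depended on the scaling of arrays that were dimmer at 24 h. With no scaling the median difference of all tested miRNAs was -0.43, 86 of 120 were lower in both pairs and 0 higher, and all 9 let-7 members were lower at 24 h in both pairs. Scaling to the array median put the median of all miRNAs at 0.00, left 14 of 120 higher and 14 lower in both pairs, and kept 7 of 9 let-7 members higher in both. With quantile normalization 4 of 9 were higher in both pairs, and with the 75th percentile over all mouse miRNAs 0 were. The let-7 median exceeded the median of all tested miRNAs by 0.15 in the main setting and by 0.11 to 0.20 over the other scalings and measures apart from normexp. With normexp background correction it lay 0.44 below that median (-0.44), and at -0.01 once 12 spots of outlying local background on the 12 arrays were left out, an alternative chosen after seeing the data. Scaling without the miR-466 group, also chosen after seeing the data, kept all 9 members higher in both pairs, while the counts over all tested miRNAs became 15 higher and 17 lower.

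Ranked by the smaller of the 2 pair differences, the leading miRNAs outside let-7 were miR-720, miR-15b, miR-423-5p and miR-21. miR-720, whose sequence is regarded as a tRNA fragment, had 2.56 and 2.40 at 12 h and 2.92 and 2.85 at 24 h, a difference of 0.41 ± 0.21 (SE) with a 95% interval from -0.12 to 0.94. Its untreated levels, 2.52 and 2.40, were close to those at 12 h. miR-21, which is abundant in fibroblasts, had 4.37 and 3.91 at 12 h and 4.66 and 4.38 at 24 h (0.39 ± 0.25). Both times lay below the untreated levels of 5.17 and 5.21, and the lower 24 h array was nearly level with the higher 12 h array. miR-423-5p, a dim miRNA near the floor, had -4.44 and -4.20 at 12 h and -3.93 and -3.85 at 24 h (0.43 ± 0.26). miR-125a-5p, of the lin-4 family, had -0.86 and -0.77 against -0.37 and -0.56 (0.35 ± 0.19). None of the 5 passed the test, and the differences of miR-720, miR-15b, miR-423-5p and miR-21 were negative with no scaling (-0.22, -0.26, -0.20 and -0.25).

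In the miR-15/16 seed family 4 of 6 members were tested, 3 had 24 h arrays above the 12 h arrays and the median difference was 0.24, against 25 percent of all tested miRNAs and a median of 0.19. miR-15b had 0.73 and 0.64 at 12 h and 1.13 and 0.99 at 24 h, 0.38 ± 0.30 higher. For miR-16 the levels were -0.93 and -0.95 against -0.76 and -0.69, and for miR-15a -0.06 and -0.41 against -0.06 on both 24 h arrays. The pair differences of miR-15a, about 0.00 and 0.35, show that 1 pair carried its difference. miR-322, a member from another locus, went apart in the pairs, with -3.92 and -3.45 at 12 h and -3.00 and -3.80 at 24 h.

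Lower values at 24 h were fewer in the main setting, though not with no scaling (86 of 120 lower in both pairs), with the array median (14 lower and 14 higher) or with scaling without the miR-466 group (17 lower and 15 higher). Among miRNAs well above background on all 4 arrays 3 were lower in both pairs: miR-690, miR-129-3p and miR-27b. miR-690 had -3.35 and -2.88 at 12 h and -3.42 and -3.65 at 24 h, a difference of -0.42 ± 0.82 that came almost wholly from replicate 2. Its SE also holds KO spread, since the KO 12 h replicates differed by 2.57. miR-27b, a regulator of lipid metabolism and adipogenesis, had -2.44 and -2.37 at 12 h and -2.46 and -2.62 at 24 h (-0.14 ± 0.35). miR-129-3p differed by -0.06 ± 0.39 and its arrays overlapped. The 4 miRNAs with both 24 h arrays below both 12 h arrays were miR-690, miR-27b, miR-193b and miR-1895, the last with -4.01 and -3.78 at 12 h and -4.27 and -4.05 at 24 h. miR-193b and miR-1895 were each above background on both 12 h arrays and 1 of the 24 h arrays. miR-30a* was the single miRNA above background on both arrays of one time and neither of the other. Its levels were -4.30 and -4.55 at 12 h and, not well above background, -4.23 and -4.78 at 24 h, so no fold is given.

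**Figure D2:**
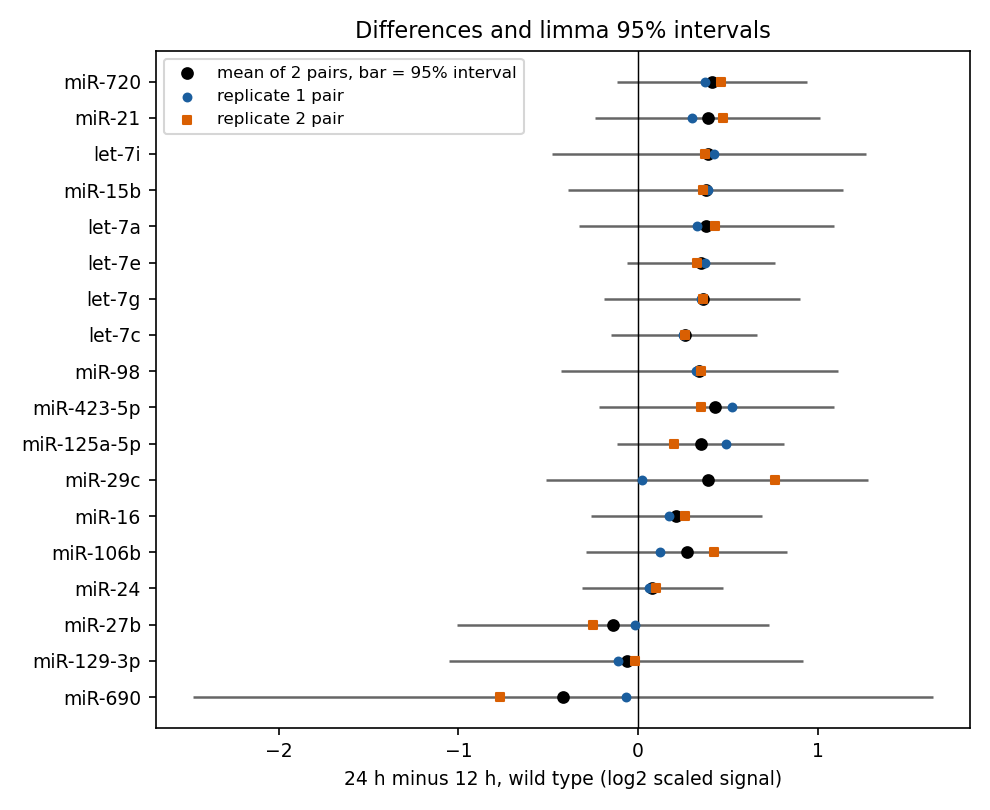
Difference in log2 scaled signal, 24 h minus 12 h, in wild-type cells (x axis) for 18 miRNAs described in the text. Black points are means of the 2 pairs with limma's 95% intervals as bars, circles and squares are the replicate 1 and replicate 2 pairs. The intervals use a spread pooled over the wild-type and KO tunicamycin groups. Every interval crosses 0, including that of let-7e from -0.06 to 0.76.

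The largest differences between the times were opposite in the 2 pairs. Of the 120 tested miRNAs 17 (14.2 percent) had pair differences of opposite sign that were both at least 1 in size, and this set was defined after seeing the values. In 16 of them the 24 h array was higher in replicate 1 and lower in replicate 2. They were miR-574-3p, miR-574-5p, miR-877*, miR-1187, miR-1196, miR-207, miR-468 and 9 of the 14 tested members of the miR-466 group. That group, in which miR-467, miR-669 and miR-297 are counted too, arises largely from a repeat cluster in an Sfmbt2 intron. The next miRNAs outside the threshold were miR-669f, miR-214 and miR-27a, whose smaller pair difference was 0.76, 0.45 and 0.40 in size.

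miR-466f-3p had -4.93 (the floor) on the replicate 1 array at 12 h and 1.41 on the replicate 2 array, and -2.53 and 0.18 at 24 h. miR-574-3p went from -4.93 to -2.45 in replicate 1 and from 1.51 to 0.41 in replicate 2. miR-877* went from -4.93 to -1.61 and from 1.09 to -0.12. At 12 h, with replicate 1 at the floor, the difference between replicates exceeded the time difference of either pair in each of them. At 24 h it did so in miR-466f-3p and miR-574-3p. In miR-877* the replicates differed at 24 h by 1.49, less than the replicate 1 time difference of 3.32. miR-574-5p, above background on all 4 arrays, had -2.76 and 0.68 at 12 h and -1.02 and -0.61 at 24 h. The rule fixed the order of the times within each replicate of the 16. What it did not fix was the order of the 24 h arrays, and in 15 of the 16 replicate 1 lay below replicate 2. The median of the 16 was -4.93 and 0.33 at 12 h and -2.51 and -0.95 at 24 h, against -3.10 and -3.52 in untreated cells. The summed scaled signal of the 39 miR-466 group names went the same way, with 0.921 and 18.3 at 12 h and 2.35 and 7.75 at 24 h.

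miR-1224 was the exception. It had -0.44 and -2.15 at 12 h and -1.88 and -0.50 at 24 h, lower at 24 h in replicate 1 and higher in replicate 2. Its KO values were 0.69 and -0.53 at 12 h and -0.30 and 2.73 at 24 h, of the same signs in both pairs.

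**Figure D3:**
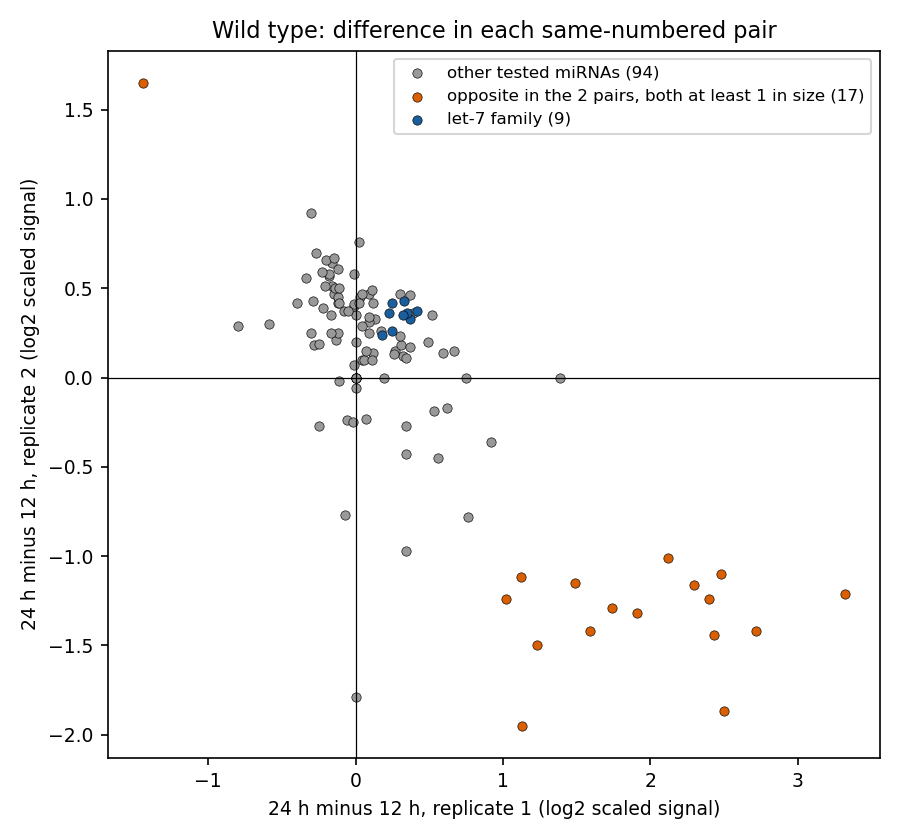
Difference 24 h minus 12 h in log2 scaled signal for the 120 tested miRNAs in wild-type cells, replicate 1 (x axis) against replicate 2 (y axis). Each point is 1 miRNA, with the 9 let-7 members in blue at upper right and the 17 miRNAs with large opposite differences in orange, 16 at lower right and miR-1224 at upper left.

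The replicate difference of these miRNAs was found in all 4 tunicamycin groups. Among the 17, 16 were higher in replicate 2 in wild type at 12 h, 16 at 24 h, 16 in KO at 12 h and 17 in KO at 24 h, with median replicate 2 minus replicate 1 differences of 5.11, 1.49, 4.17 and 2.63. Of the 16 other than miR-1224, 10 stood at the floor on the wild-type 12 h replicate 1 array, 8 on the KO 12 h and 4 on the KO 24 h replicate 1 array, so the values 5.11, 4.17 and 2.63 depend on the floor. For the 103 other tested miRNAs those medians were -0.26, -0.06, 0.02 and -0.29. In untreated wild-type cells the median of the 17 was -0.39. For 16 of the 17 the rule that chose them makes the wild-type value larger at 12 h than at 24 h, so those 2 values are a description only. The pooled SD within a group over all tested miRNAs was 1.34 at 12 h and 0.54 at 24 h in wild type, and 0.15 in untreated wild type. Without the 17 it was 0.37 and 0.25 in wild type with tunicamycin. That drop follows in part from the rule, which chose the 17 by these same values. The part of scan date, experiment or array position in the spread between replicates was not tested. Over the 120 miRNAs the 2 pair differences had a Pearson correlation of -0.79 and a Spearman correlation of -0.63. This is a description across miRNAs that share arrays and scaling. Over the 103 the Pearson correlation was -0.34, where the rule had taken out large opposite differences. With the authors' total gene signal the Pearson correlation over the 120 was -0.19. The count of 17 became 14 with that signal, 8 with the mean of log2 probe signals and 5 with the 75th percentile over all mouse miRNAs. It became 0 with normexp, which used the median signal and an offset of 50. Why the count fell was not tested.

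**Figure D4:**
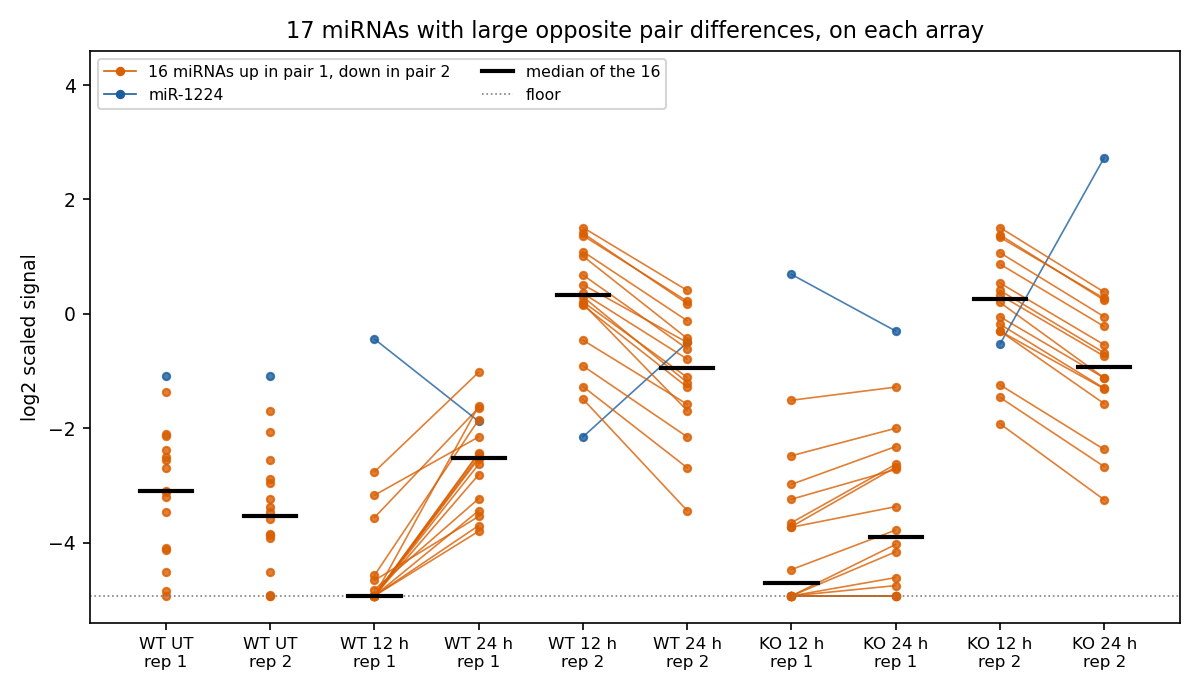
Log2 scaled signal (y axis) of the 17 miRNAs with large opposite pair differences on the untreated (UT) wild-type arrays and the 8 tunicamycin arrays (x axis). Lines join 12 h and 24 h arrays of one replicate and genotype, black bars are medians of the 16 miRNAs other than miR-1224, and the dotted line is the floor at -4.93. The 16 stand lower in replicate 1 than in replicate 2 in each genotype and time, except miR-669a, at -2.15 on both wild-type 24 h arrays.

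In several families the list median was at or below 0 in replicate 1 and positive in replicate 2. In the miR-17~92 cluster and its paralogs, which are induced by MYC and promote proliferation, 9 of 12 names on the array were tested, 3 were higher in both pairs and the list medians were -0.15 and 0.51. The 6 tested members outside miR-106b~25 had replicate 1 differences from -0.18 to -0.01 and replicate 2 differences from 0.40 to 0.67, a division of the list made after seeing the values. miR-19b had 0.41 and 0.14 at 12 h and 0.22 and 0.71 at 24 h, and miR-92a 0.02 and -0.45 against -0.13 and 0.21. The 3 members of miR-106b~25, a cluster in an intron of Mcm7, were higher in both pairs, by 0.02 to 0.12 and 0.42 to 0.49, as were 35 percent of all tested miRNAs. Their arrays did not overlap, as in 25 percent of all tested with 24 h above. miR-106b, which can target the proapoptotic gene Bim, had -1.63 and -1.92 at 12 h and -1.51 on both 24 h arrays.

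The miR-29 family, which targets collagen messages, had medians of -0.01 and 0.58 over its 3 members. miR-29c had -3.26 and -3.65 at 12 h and -3.24 and -2.90 at 24 h, so that replicate 2 carried its difference of 0.39 ± 0.36. In the miR-30 family, regulators of autophagy and fibrosis genes, all 4 tested members were lower in replicate 1 and higher in replicate 2, with medians of -0.15 and 0.40. Over all tested miRNAs 38 of 120 had that pattern, and the pair medians were 0.08 and 0.23. miR-30d, for example, had -3.00 and -3.64 at 12 h and -3.12 and -3.03 at 24 h. miR-34a, a direct p53 target, had -3.19 and -3.65 against -3.42 and -3.05, while miR-34b-5p and miR-34c stood at the floor on all 4 arrays. The p53-linked list had 6 of 10 members tested, a median of 0.09 and 1 member, miR-107, higher in both pairs.

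Of 29 miRNAs that the literature ties to the unfolded protein response 18 were tested, 7 (against 35 percent of all tested) were higher in both pairs, 0 lower in both, and 0 passed the test, with a median of 0.17. miR-7a had -2.94 and -3.14 at 12 h and -2.27 and -2.99 at 24 h, and miR-24 0.23 and 0.21 against 0.29 and 0.31. miR-214 and miR-199a-5p, from the Dnm3os transcript, were higher at 24 h in replicate 1 and lower in replicate 2, miR-214 with -2.46 and -2.21 at 12 h and -1.90 and -2.66 at 24 h. miR-27a went the other way, by -0.40 and 0.42. The fibroblast-abundant list, which shares members with other lists, had 33 of 40 tested, 13 higher and 1 lower in both pairs, and a median of 0.15. miR-22 differed by 0.07 ± 0.19 and miR-125b-5p, near in level between times, by 0.13 ± 0.26. In the miR-232724 clusters the median over 5 members was 0.01, with miR-24 higher and miR-27b lower in both pairs. Among 115 star strands 8 were tested, 1 was higher in both pairs (miR-29b*), and the median was 0.14.

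**Figure D5:**
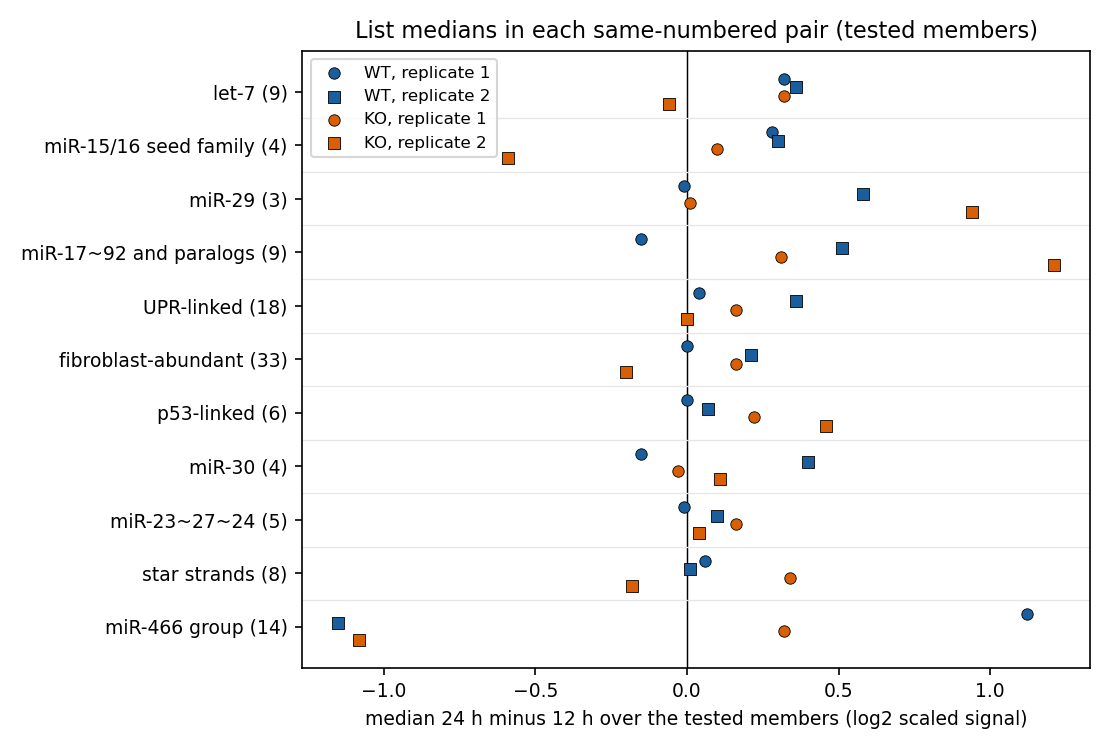
Median difference 24 h minus 12 h in log2 scaled signal (x axis) over the tested members of 11 lists (y axis, number tested in parentheses), for each same-numbered pair in wild type (WT, blue) and KO (orange). The let-7 medians in wild type are 0.32 and 0.36 (negative with no scaling), while those of the miR-466 group are 1.12 and -1.15.

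The same interval in KO cells gave 0 of 120 miRNAs (0 percent) past the threshold, with a smallest adjusted p of limma's test of 0.796 and 2 miRNAs at an unadjusted p under 0.05. The KO minus wild-type difference of the time changes also gave 0 of 120 (0 percent), 0 at an unadjusted p under 0.05 and a smallest adjusted p of 0.966. The 95% interval of that difference reached a median of 1.14 to either side. In KO 36 of 120 (30 percent) were higher in both pairs and 13 (10.8 percent) lower in both, and the pair medians were 0.21 and -0.24. The let-7 medians in KO were 0.32 and -0.06, and 4 of 9 members (let-7b, let-7c, let-7e and miR-98) were higher in both KO pairs too. let-7i, by contrast, differed in KO by 0.18 in replicate 1 and -0.74 in replicate 2. In the miR-15/16 seed family the KO medians were 0.10 and -0.59, and miR-15b differed there by 0.32 and -0.69.

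In all 4 pairs of both genotypes 10 of 120 miRNAs had the same direction in scaled signal, 9 of them higher at 24 h. Over all tested, 35 percent were higher in both wild-type pairs and 30 percent in both KO pairs, so an overlap of some size follows from these shares. Higher at 24 h were let-7b, let-7c, let-7e, miR-98, miR-125a-5p, miR-183, miR-24, miR-500 and miR-709, and lower was miR-193b. let-7e, for example, had differences of 0.37 and 0.33 in wild type and 0.42 and 0.33 in KO. 3 of 120 miRNAs were higher in both wild-type pairs and lower in both KO pairs, again in scaled signal. Over all tested, 35 percent were higher in both wild-type pairs and 10.8 percent lower in both KO pairs. With no scaling 0 of 120 were higher in both wild-type pairs, and the median KO difference was -0.41. miR-210, the main miRNA of the hypoxia response, had differences of 0.09 and 0.47 in wild type and -0.56 and -0.40 in KO. For miR-26b they were 0.09 and 0.31 against -0.23 and -0.50, and for miR-100 0.32 and 0.12 against -0.12 and -1.11. The KO direction of miR-100 turned with the measure: with the authors' total gene signal its KO levels were -3.50 and -3.58 at 12 h and higher at 24 h by a mean of 4.14. From the processed spot signals the KO levels were -3.49 and -3.39 at 12 h and -3.62 and -4.50 at 24 h. The test of the difference between genotypes did not pass for any of these 3 (adjusted p of limma's test 0.966 for each).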

How the data were processed

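Total RNA was labelled with Cy3 and hybridised to Agilent 1-colour miRNA arrays, read with Agilent Feature Extraction 10.7.1.1 per the submitters' processing notes. Spots carry intensity values in arbitrary units, per the file headers, already background-subtracted in the processed signal but not scaled between arrays. The authors' deposited table holds log2 values, which equalled log2 of their total gene signal. Other deposited columns hold flags of 0 or 1, per the file headers.

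For each miRNA the processed signal was averaged over the spots of a probe, leaving out controls (13000 of 13715 spots were kept) and outlier spots, and summed over probes. Each array was scaled to its 75th percentile of the 82 miRNAs detected on all 12 arrays, values under 0.0328 were set to that floor, and log2 was taken. Detected means well above background by the scanner software's flag, in no fewer than 50 percent of the spots of any 1 probe. No spot was saturated (0 on each array). The number of arrays limits the precision.

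limma 3.58.1 in R 4.3.3 was run on the 8 tunicamycin arrays with 1 mean per group and eBayes, and p-values were adjusted by Benjamini-Hochberg over 120 miRNAs (threshold 0.05). Residual degrees of freedom were 4, and the prior added 1.44. The untreated arrays were kept out of the fit because their spread was far smaller. Of the 120, 108 were well above background on both arrays of a wild-type group, and the others entered through a KO group. Same-numbered arrays share a scan date, and replicate 2 minus replicate 1 correlated between groups at 0.72 to 0.96 across miRNAs. The numbers were therefore taken as pairs, and the fit with the replicate number as a block was made as an alternative (statmod 1.5.0 for the random block).

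The members, lists and tests were chosen with earlier results of these data known. The rule for naming took up to 10 miRNAs each way past the threshold. Where fewer passed, it took those above background on all 4 wild-type arrays and moved alike in both pairs, ranked by the smaller pair difference. It added the 10 highest in level, up to 4 members of each list, and those above background at 1 time only. Normexp used the median signal, the column present in the files. The fit was tested on simulated data.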

Additional observations from a re-analysis of the deposited data

How the results depend on the processing

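For WT 24 h minus 12 h the count of 0 held under all 36 alternatives, with at most 6 miRNAs at an unadjusted p under 0.05 and a smallest adjusted p of limma's test of 0.235, with normexp. Leaving out each array in turn gave 0 to 0 there. With the replicate block, which pairs arrays of 1 scan date, the count was 0, the smallest p of limma's test 0.0985 and the smallest adjusted p 1, and the block changed no call. The KO minus WT count was 0 under all 34 alternatives, leaving out each array included. For KO 24 h minus 12 h it was 0 under 31 of 34. It was 1 with the total gene signal of the authors, and 1 when the deposited table was used, in both miR-100 as higher at 24 h (limma adjusted p 0.00809), which reverses its difference of -0.62 in the main setting. Leaving out each array gave 0 to 7, the 7 without KO_Tun24 replicate 1 (2 higher, 5 lower). The cause was not tested. Of 49 named miRNAs 0 passed under any alternative, and 48 changed the sign of their wild-type difference under at least 1, each let-7 member under 1, with no scaling. Only miR-194 did not, but it stood at the floor on both 12 h arrays and on 1 of the 24 h arrays. It was well above background on just 1 of the 4 arrays, so its constant sign says little. For the summed measure, signal over background limits what can be seen in dim miRNAs, 442 of 611 being above background on none of the 4 arrays.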

Other observations

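Among the 39 names of viral miRNAs on the array, the count well above background was 1 on each of the 4 wild-type tunicamycin arrays. Whether it was the same name on each was not checked. The same count was 1 and 0 on the untreated wild-type arrays.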
